A study of Mus musculus with 22 samples.

Results

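Ciliated cells were examined in 11 single-cell libraries made from dissociated and pooled organs of aged mice. A barcode was taken as a ciliated cell when it had at least 200 detected genes, at most 25% mitochondrial UMIs, at least 1 UMI of 3 or more of 7 genes, and no UMI of Ptprc or Pecam1, which mark leukocytes and endothelium. A UMI (unique molecular identifier) stands for 1 captured transcript molecule. The 7 genes were Foxj1, Tmem212, Ccdc153, Dynlrb2, Tppp3, 1110017D15Rik and Sec14l3. Of 93055 barcodes that passed the gene and mitochondrial limits, 695 were ciliated cells by this rule, a share of 0.747%. Because the cells were chosen by their own transcripts, their gene levels against other barcodes are given below as a description with no test.

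All mice carried Prom1-CreERT2, a tamoxifen-inducible Cre recombinase expressed from the Prom1 gene, and Rosa26ZSG, a ZsGreen reporter that Cre switches on. Control mice (Nalcn-wt, 5 libraries) thus had the same driver and reporter as the mice with a conditional deletion of 1 (Nalcn-het, 2 libraries) or both (Nalcn-null, 2 libraries) copies of Nalcn, the gene of a sodium leak channel. Cre acts only in cells that express Prom1 and passes to their descendants, and the libraries do not show which ciliated cells had lost Nalcn. Male pools held epididymis, kidney, liver, lung and stomach, and female pools held uterus in place of epididymis. The wt mice were 571, 571, 608, 611 and 654 days old (replicates 1 to 3 male, 4 and 5 female), the het mice 551 days (both male), and the null mice 552 (replicate 2, male) and 611 days (replicate 3, female, with its genotype given by the strain entry and not by its title). A further 2 libraries, from a male of 610 days and a female of 647 days, had labels that name different genotypes and entered no test, so their values are a description. Organs were tagged with hashtag antibodies before pooling, but the tag counts were not used here, so the organ of each cell was not read.

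Motile cilia are built on an axoneme of microtubule doublets around a central pair. Outer and inner dynein arms slide the doublets, radial spokes and the central pair time the stroke, intraflagellar transport carries parts to the tip, and each cilium stands on a basal body. Foxj1 and the RFX factors switch this set of genes on in cells that bear many cilia. Such cells line the conducting airways of the lung, where they move mucus, the efferent ducts that lead into the epididymis, and the oviduct.

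The tissue libraries held 287 to 18242 passing barcodes and 8571019 to 139793927 UMIs each. Ciliated cells had a median of 4000 UMIs, 1926 genes and 14.1% mitochondrial UMIs, against 1838 UMIs, 906 genes and 12.6% in the other passing barcodes. No ciliated barcode was found in more than 1 tissue library, although 2027 passing barcodes (2.18%) were. The library labelled null replicate 3 went against its label of a female. Of its 82 ciliated cells, 53 had UMIs of Xist, the female X-inactivation transcript, and none of Y-linked genes, while 14 had UMIs of Y-linked genes only. The remaining 2 had both kinds and 13 had neither. In the other libraries no ciliated cell had only the transcripts of the other sex, while 1 of 139 cells of het replicate 1 and 2 of 39 of het replicate 2, both labelled male, had both kinds.

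Most ciliated cells were well inside the rule. Of the 695, 286 had all 7 genes, 206 had 6, 96 had 5, 54 had 4 and 53 had exactly 3, while 193 further barcodes had exactly 2 and were left out. Outer dynein arm genes, which the rule did not use, summed to 479 CPM (UMIs of a gene scaled to one common total for every library or group of barcodes) in barcodes with 2 of the genes, 1028 in those with 3, 1965 in those with 4 and 4034 in those with 7. In the barcodes that were not ciliated cells the outer arm sum had a mean of 469 CPM over libraries. Inner arm genes summed to 122, 472, 1751 and 3781 CPM in the same 4 classes, beside a mean of 38.7 in barcodes that were not ciliated cells. Barcodes with exactly 2 also held 11965 CPM of alveolar type 2 markers, against 641 in those with 3. The refusal of Ptprc or Pecam1 removed 271 barcodes, and the gene and mitochondrial limits removed 475, of which 472 failed the mitochondrial limit only.

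Ciliated cells were found in every tissue library at a low share of the passing barcodes. In wt libraries the share was 0.404% (95% exact binomial interval 0.259 to 0.600%, 24 cells) in replicate 1, 0.565% (0.461 to 0.684%, 103 cells) in replicate 2, 0.964% (0.725 to 1.26%, 54 cells) in replicate 3, 0.367% (0.271 to 0.487%, 48 cells) in replicate 4 and 1.05% (0.216 to 3.02%, 3 cells of 287) in replicate 5. In het libraries it was 1.85% (1.56 to 2.19%, 139 cells) and 0.963% (0.686 to 1.31%, 39 cells). In null libraries it was 1.02% (0.821 to 1.26%, 89 cells) and 0.876% (0.697 to 1.09%, 82 cells). Het replicate 1 stood highest, and the other deleted libraries lay among the wt libraries. The unassigned male and female libraries had 0.231% (10 cells) and 0.651% (104 cells). These intervals cover counting error only.

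The mean share was 1.18% ± 0.454 (SD, n = 4) in Nalcn-deleted libraries, het and null together, and 0.669% ± 0.317 (SD, n = 5) in wt libraries. The difference of 0.510 percentage points was not past the threshold in an exact two-sided permutation test of the library labels (p = 0.111, the smallest p this design allows is 0.00794). Null libraries alone had 0.949% ± 0.103 (SD, n = 2, exact permutation p = 0.381, smallest possible 0.0476), and het libraries alone 1.41% ± 0.630 (SD, n = 2, exact permutation p = 0.143). Pools with epididymis had 0.962% ± 0.504 (SD, n = 6) and pools with uterus 0.763% ± 0.353 (SD, n = 3), a difference of 0.199 points (exact permutation p = 0.560, smallest possible 0.0119). Pools were grouped by their labels, which the sex transcripts of null replicate 3 went against, and without that library the difference was 0.256 points (exact permutation p = 0.571). The deleted against wt difference was past the threshold when the mitochondrial limit was set to 20% (0.625 points, exact permutation p = 0.0317). With a denominator of ciliated, club-like and alveolar type 2-like cells it turned to -3.19 points (exact permutation p = 0.794). A share depends on how much of each organ entered the pool and on how the organs were dissociated, and neither was measured here.

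**Figure D1:**
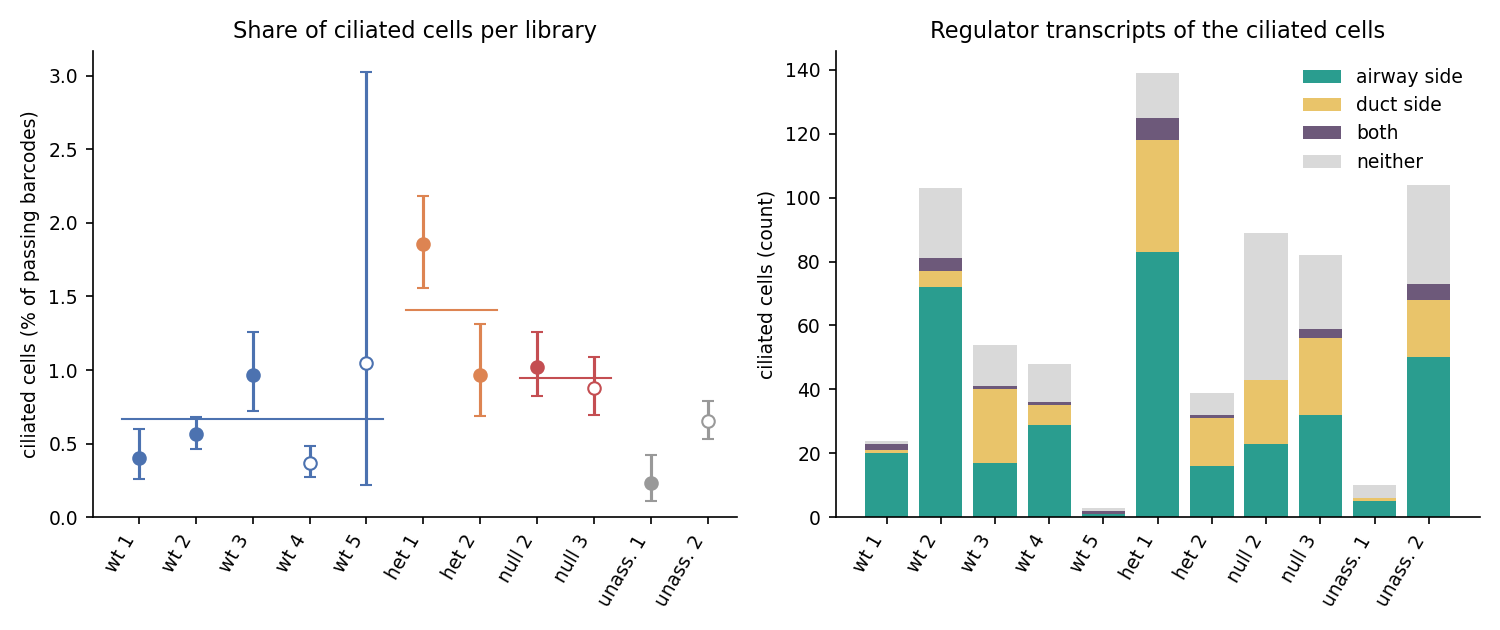
Left, percent of passing barcodes that were ciliated cells in each tissue library with the 95% exact binomial interval, horizontal lines at group means, filled points for epididymis pools and open points for uterus pools. Right, number of ciliated cells per library split by regulator transcripts into airway, duct, both and neither. Het replicate 1 stands highest at 1.85%, and the duct class is 23 cells in wt replicate 3 but 1 to 6 in wt replicates 1, 2 and 4.

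Most genes of the motile-cilia lists stood higher in ciliated cells than in the other barcodes. Levels are given as CPM of the UMIs summed over the ciliated cells of a library, as mean ± SD over the 8 genotyped libraries with at least 10 such cells. The reads came from transcript 3′ ends, so CPM was not divided by gene length. Of the rule genes, Foxj1, the master factor of motile cilia, was at 613 ± 135 CPM (lowest library 408, median 660, highest 776) against 7.56 in the other barcodes. Tmem212 was at 1352 ± 350 CPM against 11.2, and Ccdc153 at 1164 ± 245 against 10.2. Those contrasts follow from the rule. In ratios of ciliated to other barcodes, with 1 CPM added to both, 3.76% of 15983 genes had a ratio of 10 or more, 15.8% were higher in ciliated cells in every library, and the median gene stood at 0.999.

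Dynein arms move the doublets. All 19 inner arm and regulatory complex genes had a ratio of 10 or more, with a median of 52.0, and all 19 were higher in ciliated cells in each of the 8 libraries. The highest of them were the heavy chains Dnah12 (395 ± 146 CPM against 3.43) and Dnah6 (300 ± 103 against 2.76), the ruler protein gene Ccdc39 (279 ± 72.4 against 2.83) and the light chain Dnali1 (249 ± 70.9 against 2.09). For the outer arm, 11 of 14 genes had a ratio of 10 or more (median 37.9). The light chain Dynll1, also used outside cilia, was at 1572 ± 260 CPM against 434 in other barcodes, whereas the outer arm heavy chains Dnah5 (515 ± 182 against 3.70) and Dnah9 (221 ± 53.8 against 1.76) were close to absent there. Cytoplasmic factors that preassemble the arms were lower in level. Of these 12 genes, 9 had a ratio of 10 or more (median 16.8), among them Zmynd10 (113 ± 29.4 CPM against 4.90) and Lrrc6 (103 ± 35.8 against 0.983). Pih1d3 had no UMI in any of the ciliated or other barcodes.

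Spoke and central pair genes had a median ratio of 51.6, with 15 of 18 at 10 or more. Rsph1, a spoke head gene, was at 368 ± 97.4 CPM against 4.98, and the central pair genes Spef2 (271 ± 106 against 2.73), Cfap54 (266 ± 64.4 against 2.62) and Hydin (262 ± 76.7 against 2.37) were near each other in level. Genes for proteins inside and along the doublets had a median ratio of 39.3 (19 of 24 at 10 or more). Their leading members were the tubulins Tubb4b (912 ± 172 CPM against 113) and Tuba1a (650 ± 240 against 62.8), which other cells also express, and the doublet genes 1700007K13Rik (349 ± 80.6) and Mns1 (330 ± 74.8 against 6.20).

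Intraflagellar transport also builds the single primary cilium of other cell types, and the contrast was smaller there. All 24 transport and transition zone genes were higher in ciliated cells in each library, but the median ratio was 6.62 and 8 of 24 reached 10. Traf3ip1 was at 324 ± 136 CPM against 9.58, Dync2h1, the motor for the return path, at 271 ± 97.3 against 12.2, and Ift20 at 231 ± 36.2 against 88.6. Basal body and rootlet genes had a median ratio of 7.43 (6 of 13 at 10 or more), with Cep290 at 307 ± 97.4 CPM against 18.1 and Pifo at 262 ± 49.8 against 2.08.

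**Figure D2:**
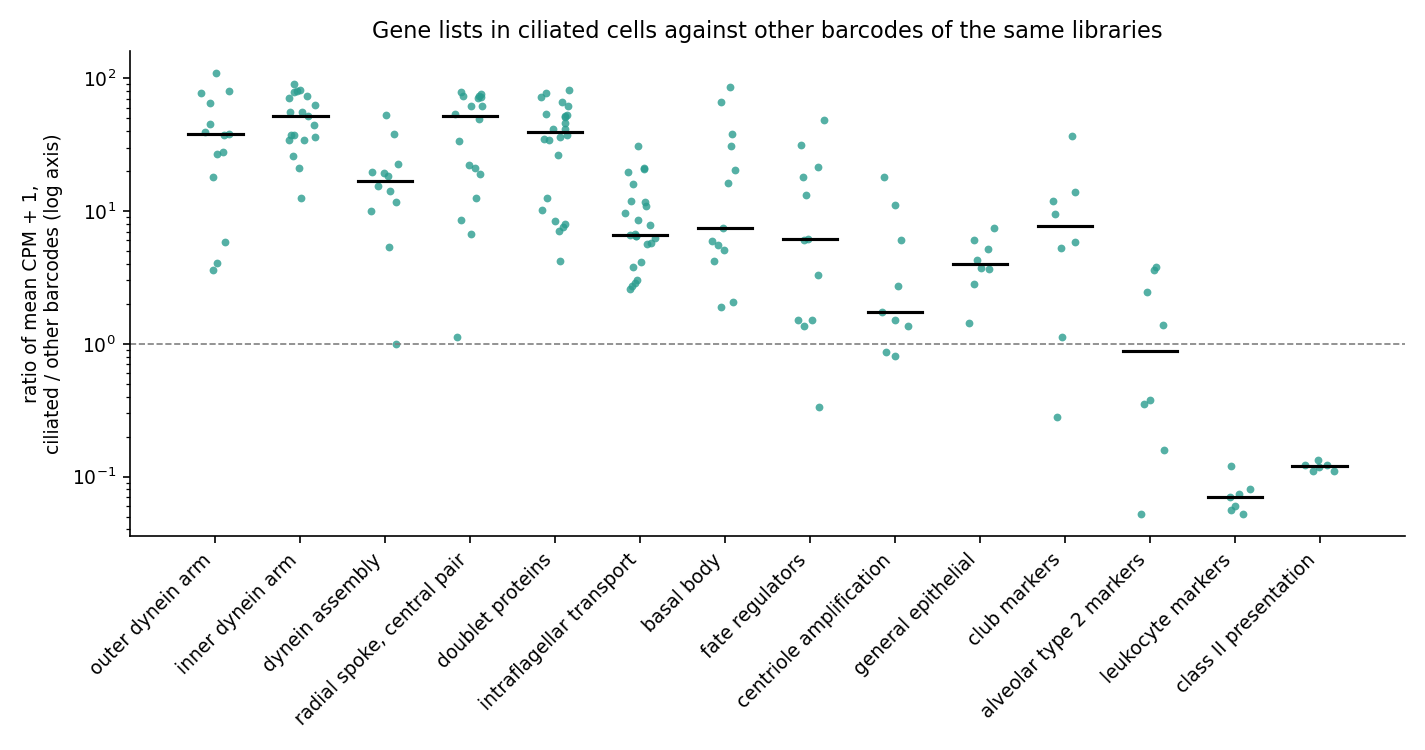
Ratio of mean CPM (plus 1) in ciliated cells to that in the other barcodes of the same 8 libraries, log axis, 1 point per gene of each list and a bar at the list median. Inner dynein arm genes have a median of 52.0 and transport genes of 6.62, while leukocyte markers lie at 0.0700. The refusal of Ptprc by the rule lowers the leukocyte markers.

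Among regulators of the fate, Myb was at 197 ± 45.6 CPM against 9.98, Rfx3 at 119 ± 25.1 against 8.15, Fank1 at 95.9 ± 37.2 against 0.991 and Trp73 at 49.9 ± 15.2 against 0.628. Tcf7l2, a Wnt effector, was at 36.2 ± 15.9 CPM in ciliated cells against 111 in the others. Of the 12 fate regulators listed, 5 had a ratio of 10 or more (median 6.12). In every library 6 of them were higher and 1 was lower. Early regulators of centriole amplification were scarce, with Mcidas at 0.506 CPM and Gmnc at 5.43. Surface genes included Cd24a, a marker used to sort ciliated cells, at 1587 ± 479 CPM against 240, and the cadherin gene Cdhr3 at 334 ± 113 against 2.88. Of the 15 surface and signalling genes listed, 4 had a ratio of 10 or more (median 2.39). In every library 7 of them were higher and 2 were lower. Metabolic genes were led by Cyp2f2 at 1568 ± 767 CPM against 41.8, Gstm1 at 1204 ± 216 against 367 and Aldh1a1 at 1069 ± 561 against 74.7. Of the 16 metabolic genes listed, 6 had a ratio of 10 or more (median 5.62), and 8 were higher in every library. Lists of other cells varied. Club cell markers had a median ratio of 7.67 (3 of 8 at 10 or more), and alveolar type 1 and type 2 markers stood at 0.960 and 0.885. All 7 leukocyte markers and all 6 class II antigen presentation genes were lower in ciliated cells in each of the 8 libraries, where 21.4% of all genes were, with medians of 0.0700 and 0.120. The 6 class I genes were also lower in each (median 0.234). The rule refused barcodes with a UMI of Ptprc or Pecam1, and the other barcodes kept them. The leukocyte contrast thus follows in part from the rule. The part of the rule in the class I and class II contrasts was not tested.

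Outside the rule, among genes with at least 100 CPM in ciliated cells and a UMI in every library with at least 10 such cells, the 20 with the largest ratio of mean CPM, here with nothing added, were, in order, Fam216b, Wdr63, Dnah5, 1700024G13Rik, Drc1, Rgs22, BC051019, Fam92b, Agr3, Ccdc78, Stk33, Drc7, Dnah9, Pifo, Dnah3, Agbl2, Cfap206, Fam81b, Dnali1 and AU040972. Their ratios ran from 149 for Fam216b (110 ± 48.5 CPM) to 118 for AU040972. With 1 CPM added to both levels the order was different, with Dnah5 at 109.6 ahead of 1700024G13Rik at 92.2 and Fam216b at 63.9. Several are axonemal by name, such as the dynein regulatory complex genes Drc1 (ratio 135) and Drc7 (126), the inner arm chain Wdr63 (145) and the tubulin deglutamylase Agbl2 (124).

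RFX factors bind the X-box, an inverted repeat whose arms were searched here as GTTGCC and GGCAAC alone, and many cilia genes carry it near their start. In RefSeq promoters (GRCm38.p6, 250 bases before to 50 after each start), a single arm, GTTGCC or GGCAAC on the strand read, which covers both strands, stood in 14.1% of 27025 genes. It stood in 33 of the 70 matched promoters (47.1%) of 87 axonemal genes, namely dynein arm, assembly, spoke and doublet lists together, in 57.1% of 21 matched transport genes and in 53.8% of 13 basal body genes. The axonemal lists differed, with 37.5% of 16 matched inner arm genes and 55% of 20 matched doublet genes. The full repeat in these exact letters, with 0 to 3 bases between the arms, stood in 0.189% of all genes and in 1 axonemal, 1 transport and 1 basal body gene. Repeats with a variant arm were not counted, so these are not counts of all X-boxes. The forkhead motif GTAAACA or TGTTTAC stood in 4.05% of all genes and 1.43% of the axonemal genes. A match is a description of letters and not of binding. Promoters of Foxj1 and Tppp3 were not in the table, and lists with under 80% of members matched are not read on their own. Among such lists the single arm stood in 18.2% of 11 outer arm, 42.9% of 14 spoke and 88.9% of 9 assembly genes. Windows that hold the full repeat are shown first, with the repeat in capitals, for 1110004E09Rik, the gene of a dynein arm assembly factor (311 ± 81.1 CPM in ciliated cells, 19.4 in others), which holds it at 2 places, and for Cep41, a basal body gene:
1110004E09Rik, chr16:90935004-90935057, minus strand, 174 bases before the start: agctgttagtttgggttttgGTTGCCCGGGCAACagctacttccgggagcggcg
1110004E09Rik, chr16:90934884-90934938, minus strand, 54 bases before the start: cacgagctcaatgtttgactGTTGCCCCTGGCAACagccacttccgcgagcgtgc
Cep41, chr6:30693846-30693900, minus strand, 116 bases before the start: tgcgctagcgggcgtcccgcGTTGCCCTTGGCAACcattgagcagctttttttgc
Windows with a single arm in these exact letters, in capitals, follow for 2 rule genes, for 2 of the genes with the largest ratio and for the regulator Rfx2 (27.0 ± 6.49 CPM against 3.53). In the Dynlrb2 and Fam92b windows the letters soon after the arm differ from the second arm by a single letter. Sites that span or follow the start were counted above but are not shown.
Ccdc153, chr9:44240510-44240545, plus strand, 146 bases before the start: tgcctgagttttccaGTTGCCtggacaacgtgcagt
Dynlrb2, chr8:116504949-116504984, plus strand, 45 bases before the start: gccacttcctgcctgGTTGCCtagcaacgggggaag
Fam92b, chr8:120177518-120177553, minus strand, 63 bases before the start: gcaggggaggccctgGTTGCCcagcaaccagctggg
Agbl2, chr2:90782632-90782667, plus strand, 74 bases before the start: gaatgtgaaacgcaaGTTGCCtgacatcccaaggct
Rfx2, chr17:56831104-56831139, minus strand, 110 bases before the start: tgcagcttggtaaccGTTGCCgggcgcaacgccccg

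Ciliated cells divided by the regulators they carried. The split below was chosen after the cells were seen and rests on their own transcripts, so it has no test. Cells with a UMI of Nkx2-1, Foxa1 or Foxa2, factors of lung and foregut epithelium, and none of Pax8, Pax2, Emx2 and Esr1, factors and a hormone receptor of the reproductive ducts, are called airway-set cells, and the converse are called duct-set cells. There were 348 airway-set cells (50.1%), 148 duct-set cells (21.3%), 25 with both kinds (3.60%) and 174 with neither (25.04%). The rule genes Sec14l3 and Tppp3 stood lower in the duct set, as given below, so the rule may have taken airway-set cells more readily. The effect of this on the set sizes and on contrasts between the sets was not tested. Their median UMIs were 4346, 5667.5, 7101 and 1972.5, so cells with neither were the shallowest. Nkx2-1 was seen in 240 cells, Pax8 in 93 and both in 6. The call rested on 1 regulator gene in 149 airway-set and 55 duct-set cells. Scrublet scores a barcode by its likeness to simulated mixtures of 2 barcodes. The highest scores of each library were called doublets, as many as a rate set beforehand from its number of barcodes. The calls took in 44 airway-set cells (12.6%) and 73 duct-set cells (49.3%). The 16.2% called among all passing barcodes was set by that rate and is not a measured doublet rate.

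Levels of each set are means over libraries with at least 10 of its cells, 8 for the airway set and 5 (wt replicate 3, het replicates 1 and 2, null replicates 2 and 3) for the duct set. Foxj1 was at 570 ± 148 CPM in the airway set and 750 ± 136 in the duct set, and Tmem212 at 1425 ± 543 and 1298 ± 276, both genes of the rule that every member was chosen by. Sec14l3, one of the markers by which ciliated cells are named, was not shared. In airway-set cells Sec14l3 stood at 3255, 1487, 3452 and 1608 CPM in wt replicates 1 to 4, 2569 and 3600 in het replicates 1 and 2, and 1988 and 1716 in null replicates 2 and 3. In duct-set cells it stood at 154 CPM in wt replicate 2 (5 cells), 9.82 in wt replicate 3, 41.1 in wt replicate 4 (6 cells), 36.8 and 0 in het replicates 1 and 2, and 58.8 and 0 in null replicates 2 and 3. Every airway-set value lay above every duct-set value. At least 1 UMI of Sec14l3 was in 97.7% of airway-set and 8.11% of duct-set cells (83.5% and 4.76% after thinning each cell to 1000 UMIs), and in 0.562% of 3202 Ptprc-positive barcodes (at most 300 per library), which should lack it, at a median of 2553 UMIs. The Ptprc-positive barcodes were drawn with under 3 rule genes and at least 1000 UMIs, so their low share for a rule gene is in part set by that choice. Tppp3 was also lower in the duct set (515 ± 176 against 2031 ± 647 CPM). Of the 5 markers named for ciliated cells, Sec14l3 thus went against the label in the duct set.

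Axonemal genes stood somewhat lower in the duct set. In the 5 libraries with both sets, duct over airway ratios had list medians of 0.688 for the outer arm, 0.551 for the inner arm, 0.563 for assembly factors, 0.682 for spokes and central pair, 0.640 for doublet proteins and 0.703 for transport, against 0.986 over 10235 genes. Of inner arm genes 7 of 19 lay at 0.5 or less, where 17.6% of all genes did (5 to 8 leaving out 1 library). The counts were 3 of 13 for the outer arm, 4 of 11 for assembly factors and 4 of 17 for spokes. Single libraries moved others, with 8 of 23 doublet genes but 2 without het replicate 2, and 4 of 23 transport genes but 7 without null replicate 2 and 2 without het replicate 2. Dnah5 was among the lower genes. In the airway set it was at 706 ± 201 CPM (n = 8) and in the duct set at 207 ± 71.8 (n = 5, range 139 to 324), although the 6 duct-set cells of wt replicate 4, a uterus pool, stood at 904. Of the regulators, Myb was at 247 ± 72.7 CPM in the airway set and 166 ± 58.6 in the duct set, and Rfx3 at 116 ± 26.1 and 122 ± 62.2.

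Genes of foreign-compound metabolism stood higher in the airway set. The list had a median duct over airway ratio of 0.137, with 12 of 16 genes at 0.5 or less. Cyp2f2, an oxidase also abundant in club cells, was at 2476 ± 615 CPM in the airway set and 18.8 ± 31.0 in the duct set, and the retinal dehydrogenase Aldh1a1 at 1668 ± 367 and 69.4 ± 81.6. Club markers moved the same way, with a median of 0.00869 (6 of 7 at 0.5 or less) and sums of 86578 CPM in the airway set and 379 in the duct set of these libraries, and the part of club cell transcripts in the metabolic list was not tested. In the opposite direction, the 10 immediate early and heat shock genes had a median ratio of 5.13 and all 10 lay at 2 or more, where 18.3% of all genes did. Fos was at 3308 ± 1829 CPM in the duct set (5947 in wt replicate 3) and 1064 ± 545 in the airway set, and Egr1 at 2253 ± 1363 and 405 ± 163. Class I antigen presentation genes (median 2.40, 5 of 6 at 2 or more) and interferon-stimulated genes (3.90, 5 of 7) were also higher in the duct set, mainly through het replicate 2. In its duct set B2m, the light chain of class I molecules, stood at 1595 CPM and Isg15 at 538, against at most 455 and 11.9 in the other 4 libraries. Without it the medians were 1.40 and 1.16, with 1 gene of each list at 2 or more. Epididymal secretory transcripts summed to 12072 CPM in the duct set and 492 in the airway set, beside 19134 in the other barcodes of the same 5 libraries. Kidney tubule markers summed to 140, 145 and 464 CPM in the same order.

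The 12 genes with the largest ratio on each side, chosen after the cells were seen, came from 500 airway and 549 duct genes with at least 100 CPM on their side and a higher level there in each of the 5 libraries. Airway genes included AU040972 (394 ± 202 against 0.475 CPM, n = 5), the foregut factor Sox2 (138 ± 32.7 against 0.238), the carbonyl reductase Cbr2 (3313 ± 633 against 22.9), the potassium channel subunit Kcnmb2 (233 ± 114 against 1.71) and the amino acid transporter gene Slc7a2 (226 ± 115 against 3.95). Duct genes included the receptor Ildr2 (290 ± 99.2 against 0.484 CPM), angiotensinogen, Agt (231 ± 33.6 against 0.242), the POU factor Pou3f3 (140 ± 52.0 against 0.484), the retinoid binder Crabp1 (115 ± 52.3, no UMI in the airway set) and the chaperone Cryab (277 ± 106 against 1.74). Mmp7, a matrix protease, entered mainly through het replicate 2.

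**Figure D3:**
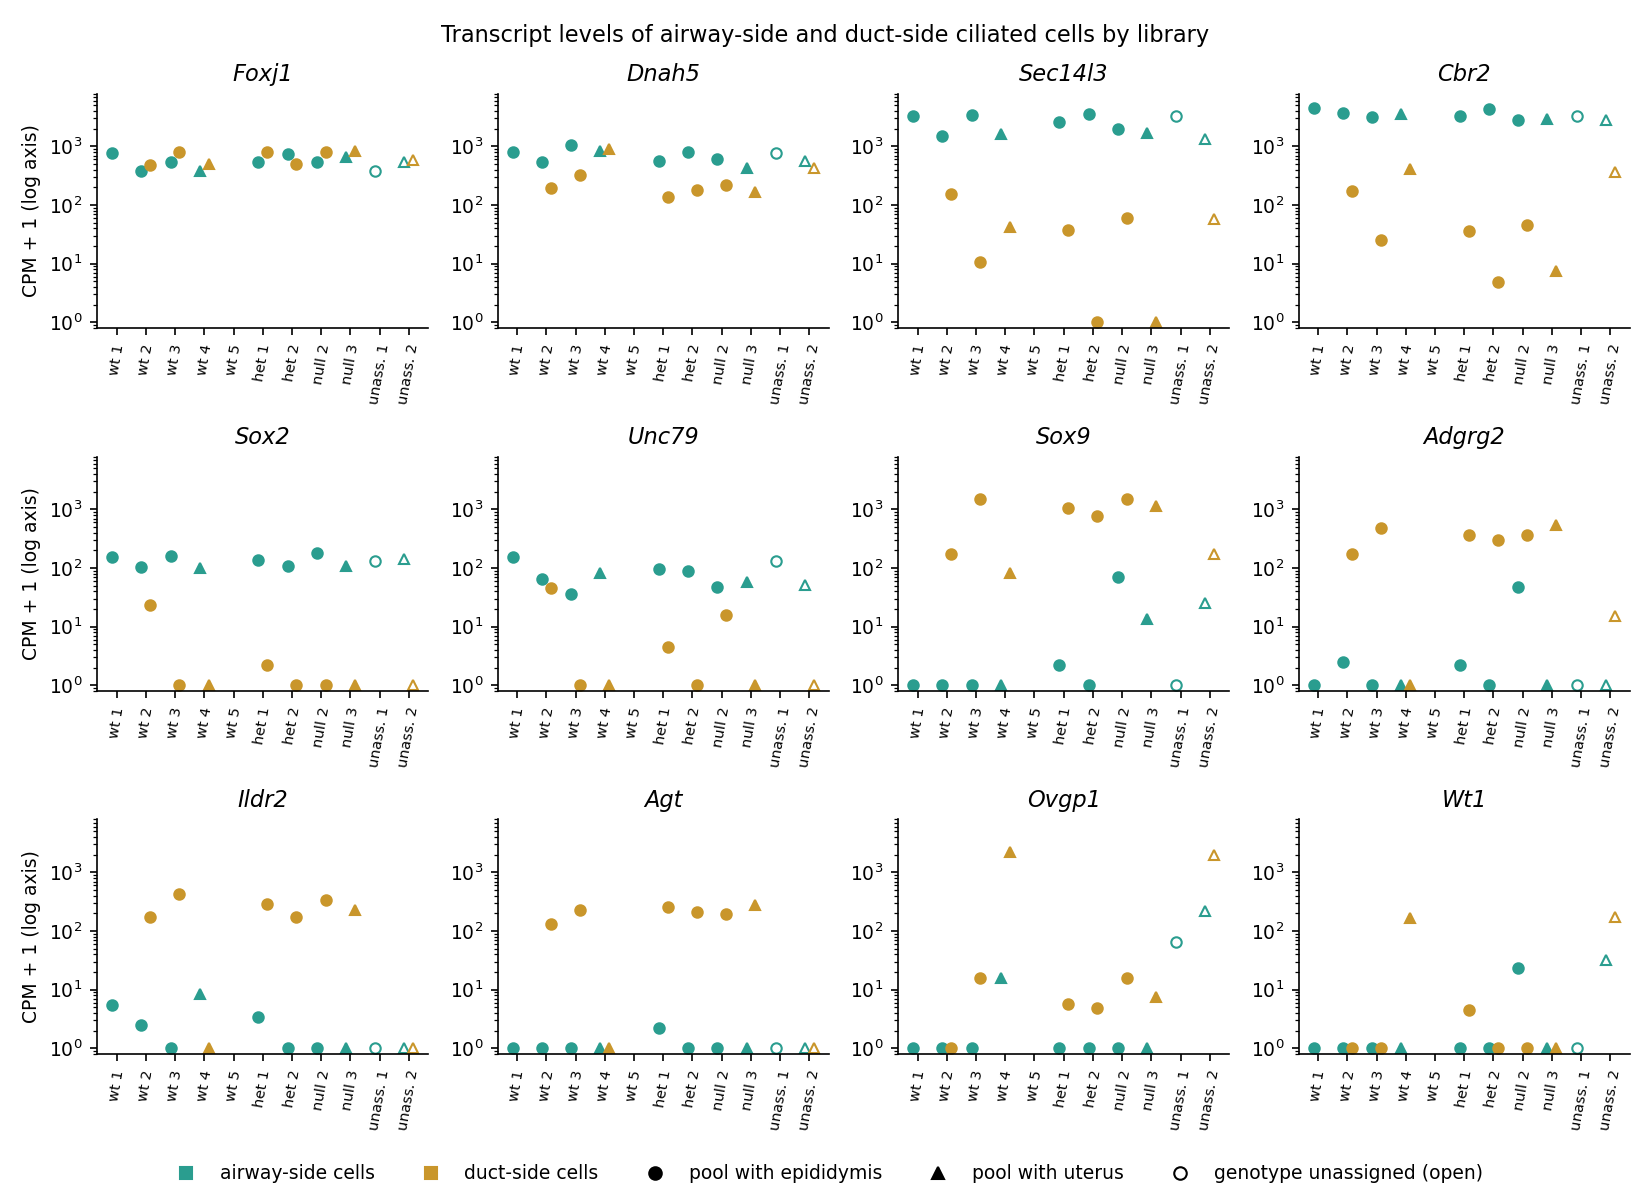
CPM plus 1 (log axis) of 12 genes in airway-set (teal) and duct-set (gold) ciliated cells of each library, circles for epididymis pools, triangles for uterus pools and open symbols for unassigned libraries. Foxj1 overlaps between the sets, Sec14l3 does not, and Ovgp1 is near 2000 in duct-set cells of wt replicate 4 and the unassigned female library but at 6.48 in null replicate 3, also labelled as a uterus pool.

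The duct set differed between pools. Of the uterus pools, wt replicate 4 had 6 duct-set cells and the unassigned female library had 18, so these values are a description. Wt replicates 1 and 2 and the unassigned male library, also epididymis pools, had 1, 5 and 1 duct-set cells and are left out below. In all ciliated cells of wt replicates 1, 2 and 4, Sox9 was at 14.7 to 20.8 CPM. Sox9, a duct and progenitor factor, stood at 1493 CPM in wt replicate 3, 1057 and 780.4 in het replicates 1 and 2 and 1528 in null replicate 2, all epididymis pools, and at 82.2 in wt replicate 4 and 169 in the unassigned female library. Adgrg2, a receptor of the efferent ducts, stood at 476, 360.0, 299 and 367 CPM in the same epididymis pools, at 0 in wt replicate 4 (where 0 UMIs allows up to 123 CPM) and at 14.1 in the unassigned female library. Ovgp1, the oviductal glycoprotein, had the reverse order. It stood at 2220 CPM in wt replicate 4 and 1990 in the unassigned female library, and at 14.7, 4.75, 3.79 and 14.7 in the epididymis pools. Wt1, a factor of Mullerian epithelium, followed Ovgp1 (164 and 169 CPM in the uterus pools, at most 3.56 in the others). Wt replicate 3, the lone wt epididymis pool with at least 10 duct-set cells, lay within the deleted epididymis pools for Sox9 and above them for Adgrg2.

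Null replicate 3, labelled as a uterus pool, did not carry the pattern of wt replicate 4 and the unassigned female library. Its 24 duct-set cells had Sox9 at 1161, Adgrg2 at 532 and Ovgp1 at 6.48 CPM. Of those cells 12 had Y-linked UMIs only, 1 Xist only, 2 both and 9 neither, whereas all 32 of its airway-set cells had Xist only. Among its 9282 other barcodes, 6074 had Xist only, 474 Y-linked UMIs only and 195 both, and the epididymal defensin Defb47 was at 845 CPM. The library thus held transcripts of both sexes, and how they came together was not tested.

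The share of ciliated cells with a transcript of any of 16 reproductive-duct regulators, after thinning to 1000 UMIs, was 18.3% ± 15.3 (SD, n = 6) in epididymis pools and 21.7% ± 2.44 (SD, n = 2) in uterus pools. By library it was 0% in wt replicate 1, 4.85% in wt replicate 2, 40.7% in wt replicate 3, 15.9% and 17.9% in het replicates 1 and 2 and 30.6% in null replicate 2 for epididymis pools. It was 20% in wt replicate 4 and 23.5% in null replicate 3. The difference of -3.39 points by label was not past the threshold (exact permutation p = 0.75, smallest possible 0.0357). Without null replicate 3, whose duct-set cells went against its label of a uterus pool, wt replicate 4 was the lone uterus pool and the difference was -1.66 points (exact permutation p = 0.857, smallest possible 0.143). Without thinning, without Scrublet doublets or without wt replicate 1 the difference was positive.

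A small set of ciliated barcodes was full of Scgb1a1, the secretoglobin that club cells, the secretory cells of the airway, release in bulk. In 56 barcodes (8.06%) Scgb1a1 took at least 5% of UMIs, up to 72.2% in het replicate 1. These 56 held 98.8% of all Scgb1a1 UMIs of ciliated cells. By library they numbered 0, 14, 0, 6 and 0 in wt replicates 1 to 5, 16 and 1 in het, 3 and 7 in null, and 0 and 9 in the unassigned libraries. Their median depth was 13250.5 UMIs against 3635 in the remaining ciliated cells, 22 were called doublets by Scrublet, 46 were in the airway set and 0 in the duct set. Of the 56, 47 had at least 4 rule genes. In the remaining ciliated cells Scgb1a1 was sparse. The median ciliated cell of a library gave it 0 to 0.231% of its UMIs, and 54.6% of Ptprc-positive barcodes had a UMI of it. In wt replicate 2 it stood at 219602 CPM, which lowers the CPM of every other gene there, against 493 in wt replicate 3. Whether the 56 are mixtures of a club and a ciliated cell was not tested.

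**Figure D4:**
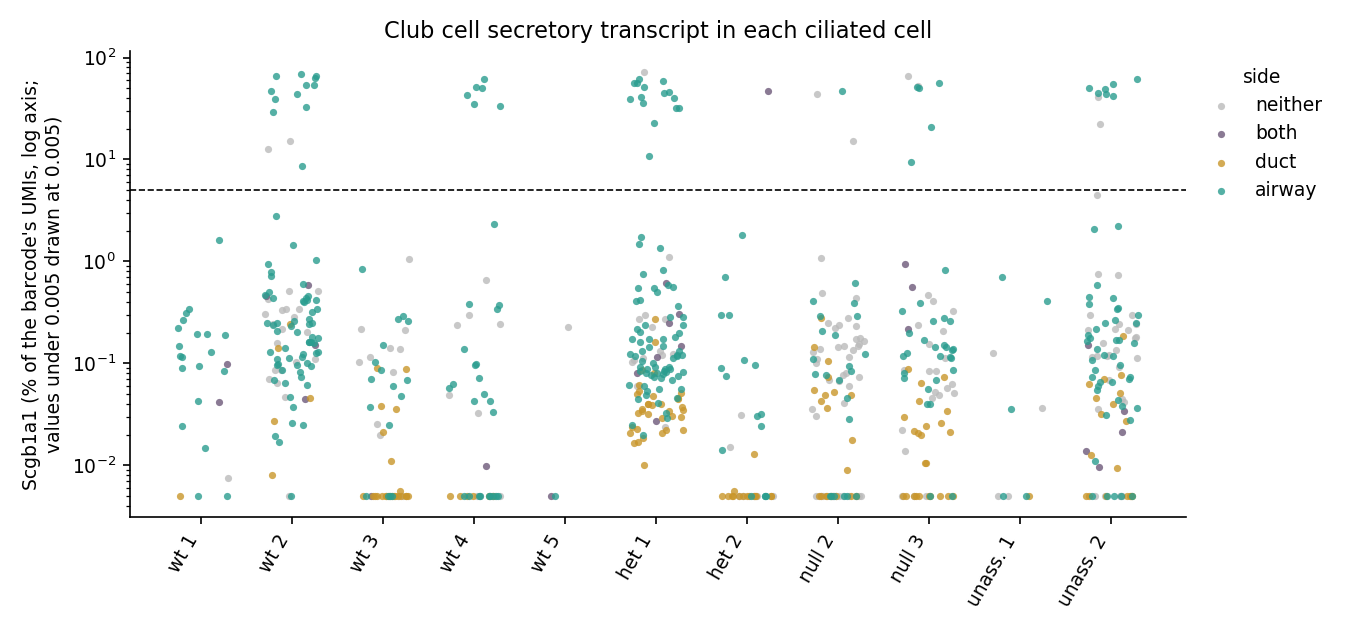
Percent of a ciliated cell's UMIs that were Scgb1a1 by library, log axis, 1 point per cell, with values under 0.005 drawn at 0.005 and a dashed line at 5%. Most cells lie under 1%, and 56 of 695 lie at or above the line.

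Markers of further cell types were present in some ciliated barcodes. At least 3 club markers were in 332, 3 epididymal secretory transcripts in 59, 3 alveolar type 2 markers in 68, 3 leukocyte markers in 53, 3 kidney markers in 26 and 3 hepatocyte markers in 2. Ptprc was at 0 in all members by the rule. Proliferation transcripts were rare, with a Mki67 UMI in 0.719% of ciliated cells against 5.93% of Ptprc-positive barcodes, and at least 2 of 6 proliferation genes in 8 cells. Of 9 genes of centriole amplification, a list that includes Myb, 2 or more were seen in 112 cells unthinned. Myb had a UMI in 56.1% of ciliated cells and Deup1 in 11.8%, so having 2 of the genes does not by itself mark a maturing cell. After thinning, the share with 2 or more was 0, 1.94, 0 and 0% in wt replicates 1 to 4, 0.725 and 2.56% in het and 2.78 and 1.23% in null. The means were 1.83% ± 1.00 in deleted and 0.485% ± 0.971 in wt libraries (SD, n = 4 each), a difference of 1.34 points that was not past the threshold (exact permutation p = 0.0857, smallest possible 0.0143). The difference was 8.60 points without thinning (exact permutation p = 0.314), 5.73 when thinned to 2000 UMIs (0.0857) and 2.40 in cells with at least 4 rule genes (0.143). By set, and after thinning, Ccno had a UMI in 0.299% of airway-set and 2.72% of duct-set cells (1.72% and 16.2% unthinned) beside 0.344% of Ptprc-positive barcodes. Gmnc had one in 0.599% and 2.72% (1.15% and 9.46% unthinned) and in no Ptprc-positive barcode, which allows up to 0.0937%. Deup1, a deuterosome gene, had one in 4.49% and 1.36% (15.8% and 9.46%) beside 0.0937% of Ptprc-positive barcodes. The thinned shares rest on 1 to 15 cells each and were not tested.

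Prom1, whose locus drives Cre (chr5:43993620-44102032 on mm10, minus strand), was read in some libraries and not in others. In all ciliated cells it stood at 121, 109, 76.1, 15.3 and 149 CPM in wt replicates 1 to 5, 0.564 and 103 in het replicates 1 and 2, 0 and 27.6 in null replicates 2 and 3, and 0 in both unassigned libraries. Het replicate 1 was near 0 with 139 cells and het replicate 2 was among the wt libraries with 39. In airway-set cells Prom1 was at 116, 111 and 282 CPM in wt replicates 1 to 3 and 129 in het replicate 2. It had 0 UMIs in wt replicate 4, het replicate 1, and null replicates 2 and 3, where 0 UMIs allows up to 22.5, 3.63, 68.6 and 18.8 CPM. The fitted difference of deleted from wt was -1.45 on the log2 scale (SE 1.13, edgeR adjusted p = 0.757). It ran from -5.11 to -0.25 leaving out 1 library, and was called only with no filter on low counts (-1.44, adjusted p = 0.0135). What set het replicate 1 apart was not tested.

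**Figure D5:**
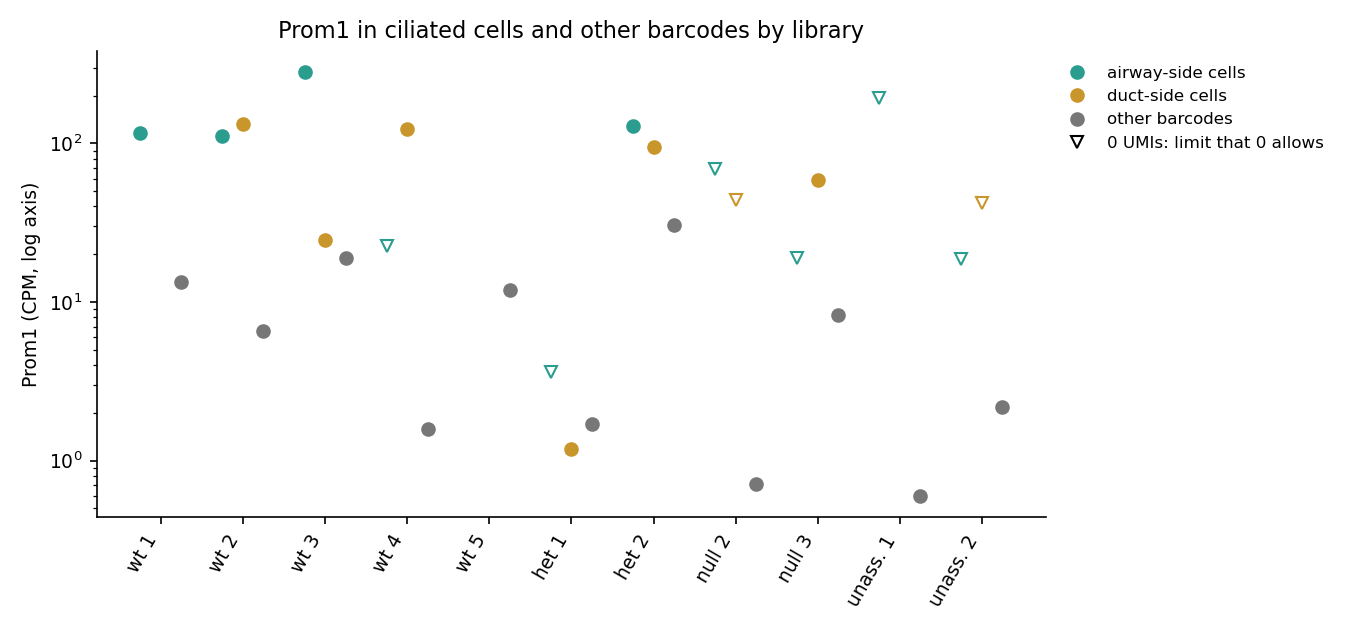
CPM of Prom1 by library in airway-set and duct-set ciliated cells and the other barcodes, for populations of at least 5 cells, with open triangles at the level that 0 UMIs allows. Airway-set cells of wt replicates 1 to 3 and het replicate 2 lie at 111 to 282, and those of het replicate 1 under 3.63.

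Nalcn itself (chr14:123276634-123627144, minus strand) had 2 UMIs in the 695 ciliated cells, 1 in wt replicate 3 and 1 in null replicate 3, both in duct-set cells. Its share of 0.288% of cells (95% exact interval 0.0349 to 1.04%) compared with 0.0312% of Ptprc-positive barcodes, and loss of Nalcn was not detectable at this depth. Unc80 and Fam155a, further parts of the channel complex, had no UMI, which allows up to 0.432% of cells with a captured UMI and does not limit the share of cells that express them. Unc79, the third partner, was different. It had a UMI in 128 ciliated cells (18.4%), in 28.4% of airway-set and 2.70% of duct-set cells, and in 0 of the Ptprc-positive barcodes, which allows up to 0.0937%. Its level in all ciliated cells was 143, 66.1, 9.93 and 86.6 CPM in wt replicates 1 to 4, 49.7 and 29.8 in het and 27.4 and 25.1 in null. In airway-set cells Unc79 was at 77.5 ± 36.6 CPM (35.2 to 151, n = 8) and in the other barcodes at most 0.962. The difference of deleted from wt was -1.20 (log2, SE 0.57, edgeR adjusted p = 0.658), and it was called only without wt replicate 3 (-1.51, adjusted p = 0.0289). That library had 57.5% of its assigned cells in the duct set.

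Genotype was tested gene by gene on UMIs summed per library in the 8 libraries (edgeR quasi-likelihood, labelled sex as a covariate, Benjamini-Hochberg adjustment over 6685 genes). Het and null together against wt gave no call at an adjusted p under 0.05 (0% of genes), with 486 genes at an unadjusted p under 0.05 and 2 calls by DESeq2, Defb47 and Ifitm1. None of the cilia genes, metabolic genes or regulators tested was called. Without wt replicate 3 there were 196 calls (138 higher, 58 lower, 2.78% of 7053 genes). With 10 to 23 genes tested in each, none lay in the dynein arm, assembly, spoke, doublet or transport lists, but Aldh1a1 (-1.18, edgeR adjusted p = 0.0206), Gpx2, a glutathione peroxidase (-0.97, 0.0460), and Foxa1 (-1.36, 0.0191) were lower, and Pax2 (4.35, 0.00905), Esr1 (2.56, 0.0102) and Pax8 (2.11, 0.0469) were higher. Median log2 differences were -0.21 over 13 outer arm genes (3 positive), -0.32 over 19 inner arm genes (2 positive), -0.31 over 15 spoke genes (3 positive), -0.34 over 9 assembly genes (1 positive), -0.00 over 22 doublet genes (11 positive) and 0.03 over 22 transport genes (12 positive), beside -0.00 over all genes. Lists with larger medians included those that separate the sets and several of other cell types. The medians were -0.77 for airway regulators (0 of 5 positive), 1.30 for duct regulators (6 of 6 positive) and 2.73 for epididymal secretory transcripts (8 of 8 positive), and -0.83 for club markers (1 of 7), -0.84 for leukocyte markers (0 of 5), -0.86 for kidney markers (0 of 4), -1.53 for haemoglobins (0 of 4) and 1.86 for stromal markers (2 of 2). They were also 0.76 for class I genes (4 of 5) and 0.96 for interferon-stimulated genes (5 of 5), for which het replicate 2 stood apart, -1.32 for Unc79 and Prom1, the tested genes of the channel and Cre locus list (0 of 2), 0.77 for stomach markers (4 of 4) and 1.93 for the 2 tested genes (1 positive) of a list of 10 that the study picked, which is not independent evidence of a direction. For some lists het and null went opposite ways against wt. Stomach markers had medians of -1.96 in het (0 of 4 positive) and 3.39 in null (4 of 4). Leukocyte markers had -2.68 (0 of 5) and 0.86 (4 of 5), and kidney markers -1.94 (0 of 4) and 0.21 (2 of 4). Interferon-stimulated genes had 1.89 (5 of 5) and -0.19 (2 of 5). The share of duct-set cells among those assigned to a set was 4.76, 6.49, 57.5 and 17.1% in wt replicates 1 to 4, 29.7 and 48.4% in het and 46.5 and 42.9% in null. The part of this mix, or of transcripts from other cell types, in the list medians was not tested. Fewer cells of a set and less RNA per cell cannot be told apart in such sums. In airway-set cells alone, a choice made after the data were seen, the comparison had 1 call among 3576 genes (0.028%), the epididymal transcript Spink8 (3.78, SE 0.60, edgeR adjusted p = 0.0273). Spink8 stood at 31.2, 6.11, 17.6 and 0 CPM in airway-set cells of wt replicates 1 to 4, 95.6 and 19.8 in het and 91.4 and 1127 in null, so het replicate 2 lay within the wt range. In the other barcodes it reached 4628 CPM.

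The smallest p values were those of Defb47 (5.72, SE 0.70, edgeR adjusted p = 0.0865), the defensin gene Defb25 (5.37, SE 0.91, 0.473) and the cystatin gene Cst8 (5.14, SE 0.89, 0.473), all log2 and none called. Het against wt had 1 call (0.015% of genes), Defb47 again (6.85, SE 0.73, edgeR adjusted p = 0.0257). Its level was 3.68 CPM in wt replicate 1, 0 in wt replicates 2 to 4, 59.8 and 75.5 in het and 80.3 in null replicate 3, and null replicate 2 had 2 UMIs. Of 106 UMIs in het replicate 1, 81 came from 1 barcode, and of 33 in het replicate 2, 31 did. The call was kept in 8 of 19 alternatives, 1 of which did not test it and 1 of which, the limit of 20 cells per library, left the same libraries and had to keep it. Null against wt had 1 call (0.015%), the gastric mucosal gene Gkn2 (4.49, SE 0.44, edgeR adjusted p = 0.0134). Gkn2 stood at 14.7, 12.2, 33.1 and 5.10 CPM in wt replicates 1 to 4, 7.34 and 9.16 in het, 499 in null replicate 2 and 17.6 in null replicate 3. Null replicate 2 stood apart, and 80 of its 91 UMIs lay in 1 barcode. The call was kept in 7 of 19 alternatives, 6 of which did not test it, and that limit is again among the 7. Without wt replicate 3, het against wt had 160 calls and null against wt 41, 2.27% and 0.581% of 7053 genes, with none in the dynein arm, assembly, spoke, doublet or transport lists.

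In airway-set cells alone the het and null contrasts turned to transcripts of other cell types. Het against wt had 11 calls (0.308% of 3576 genes), all lower. They were the class II genes Cd74 (-3.67, SE 0.60, edgeR adjusted p = 0.0116), H2-Aa, H2-Ab1 and H2-Eb1, the leukocyte genes Ctss, Cd52, Fcer1g and Tyrobp, and the haemoglobins Hbb-bs, Hba-a1 and Hba-a2. Cd74 stood at 944, 116, 704 and 173 CPM in airway-set cells of wt replicates 1 to 4 and at 33.9 and 49.5 in het, while the other barcodes of the het libraries had 2783 and 3476 and those of wt replicates 1 to 4 had 3190 to 3803. The wt and het ranges of airway-set cells did not overlap, but no cilia gene was among the 11. Null against wt had 5 calls (0.14%), all higher: the gastric genes Tff2 and Gkn1, the epididymal genes Gpx5 and Spink8, and Cd52. Tff2 stood at 2857 CPM in null replicate 2 and 175 in null replicate 3, against 0 to 123 in wt replicates 1 to 4, so null replicate 2 stood far above the rest.

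Epididymis against uterus pools had 1 call (0.015%), Xist, lower in epididymis pools (-12.93, SE 0.74, edgeR adjusted p = 0.00642) and called in the 16 alternatives that tested it, that limit included. Without wt replicate 4 there were 0 calls and Xist was not tested. In airway-set cells alone it had 1 call (0.028%), Xist. No cilia gene was called, and the list medians were 0.01 for the outer arm, 0.06 for the inner arm and 0.06 for transport on the log2 scale. Other lists had larger medians, with no call among them. They were 5.95 for haemoglobins (4 of 4 positive), 3.80 for stromal (2 of 2), 2.41 for stomach (4 of 4) and 1.76 for leukocyte markers (4 of 5). Immediate early and heat shock genes had 0.63 (10 of 10) and club markers -0.98 (0 of 7). Sex, reproductive organ and, for 1 of the 2 female libraries, the mixed transcripts of null replicate 3 cannot be told apart here. Het replicate 2 stood out for interferon-stimulated genes. Its ciliated cells had Isg15 at 325 CPM, where het replicate 1 had 10.7 and the median library 4.00, and Ifitm3 at 1380, while the other barcodes of het replicate 2 had Isg15 at 54.9.

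No ciliated cell was found in blood by the same rule. Circulating cells sorted for ZsGreen from blood of mice without tumours (10 libraries labelled ntCZC, 2 wt, 4 het and 4 null, from males and females of 551 to 649 days) gave 0 of 2109 passing barcodes, which allows a share of up to 0.142%, and cells labelled PBMC (1 library of peripheral blood mononuclear cells from a wt male of 120 days) gave 0 of 679, which allows up to 0.442%. The limit for circulating cells pools the barcodes of all 10 libraries and covers no spread between them. By library it ran from 0.519% (ntCZC het replicate 4, 578 barcodes) to 27.3% (ntCZC wt replicate 3, 11 barcodes). Most of these limits lay above the tissue share of 0.747%. At least 1 rule gene was read in 685 of the circulating barcodes (32.5%), and 1 barcode had 2 of them. Tppp3 made up nearly all of these, with a UMI in 683 circulating barcodes, whereas Foxj1 was read in 2, Dynlrb2 in 1 and the other 4 rule genes in none. In the PBMC library only Tppp3 was read, in 6 barcodes (0.884%), and in tissue it was read in 10.1% of passing barcodes. Median depths were 4276 UMIs in circulating, 1845 in PBMC and 1847 in tissue barcodes.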

How the data were processed

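The authors deposited filtered gene-by-barcode matrices of UMI counts, made with Cell Ranger on mm10 from 10x 3′ v3 libraries (matrix headers name 3.0.2, the submitters' notes 2.1.1 and Seurat). The matrices held 31053 genes. Authors' cell annotations and hashtag counts were not used here. Counts were used as deposited. Members were found by the rule, their counts were summed per library, and CPM was computed over all genes. The members and gene lists were chosen with earlier results of these data known. Shares per library were compared by an exact two-sided permutation of library labels (Python 3.11.15, scipy 1.17.1). Summed counts of libraries with at least 10 members were tested with edgeR 4.0.16 (R 4.3.3; TMM, filterByExpr, quasi-likelihood, genotype and labelled sex), with DESeq2 1.42.0 as an alternative. Adjusted p values under 0.05 were called. Shares of cells with a transcript were thinned to 1000 UMIs where stated. Doublets were scored with Scrublet (scanpy 1.11.5) and kept in the main results. The highest scores were called, as many as an expected rate of 0.8% per 1000 barcodes, at most 25%. The alternatives were other limits on cells, scalings, covariates and filters, and leaving out each library. Genes named were the 4 highest members of each list, up to 20 by ratio to other barcodes, called genes or the 3 smallest p values, Prom1 and Nalcn; other names were chosen after their values were seen. Club-like and alveolar type 2-like barcodes carried at least 4 and 5 markers of those classes. Labels name samples as replicates but not animals, so p values measure the spread between libraries. No 2 libraries of a group held copies of the same counts (chi-square per degree of freedom 4.50 to 20.5 over 8 pairs). These values do not show whether 2 libraries came from the same animal. The test was checked on simulated counts. Some genes are not reported here and took no part in the division into airway-set and duct-set cells. Columns of per-sample values left unused numbered 0.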

Additional observations from a re-analysis of the deposited data

Results flagged for a closer look

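Of 46 values tested over the wt libraries, 12 had a lone library far from the others. Some of the genes were chosen after their values were seen, so no chance rate applies to this count. A lone library with UMIs among libraries with none was flagged at any level, even from 1 UMI. Wt replicate 1 stood high for 4 cilia genes. In it 1110017D15Rik was at 1195 CPM (others 505 to 588), Fam216b at 224 (89.4 to 109), BC051019 at 371 (133 to 159) and Fam92b at 265 (99.3 to 119). Its ciliated cells were the deepest of the 11 tissue libraries, with a median of 9647.5 UMIs, and held no barcode rich in Scgb1a1. The part of either in these levels was not tested.

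Wt replicate 3 stood high for genes of the duct set, with Sox9 at 1033 CPM (others 14.7 to 20.8) and Adgrg2 at 334 (0 to 24.5), and for Nalcn at 3.31 (others 0), which was 1 UMI. It had 23 duct-set cells against 1 to 6 in wt replicates 1, 2 and 4. Wt replicate 4, the female pool, stood high for Xist at 1835 CPM (others 0), Ovgp1 at 540 (0 to 9.93) and Wt1 at 45.9 (others 0). Defb47 was at 3.68 CPM in wt replicate 1 (others 0), which was 1 UMI. The share of cells with at least 2 genes of centriole amplification was 1.94% in wt replicate 2 and 0 in the others.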

How the results depend on the processing

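Counts of called genes moved by over 1.5 times, or to or from 0, in 5 of 19 alternatives for deleted against wt, 13 of 19 for null, 16 of 19 for het and 7 of 17 for pools. For deleted against wt (0 calls) DESeq2 gave 2, airway-set cells alone 1 and no filter on low counts, which tests 18062 genes, gave 140. Leaving out 1 library gave 0 to 196, with 5 without wt replicate 2 and 196 (138 up, 58 down) without wt replicate 3. For null against wt (1 call) no filter gave 59, airway-set cells alone 5, and leaving out 1 library 0 to 41 (41 without wt replicate 3, 3 without wt replicate 2). No sex covariate, the 20% mitochondrial limit, Scrublet doublets left out and cells with 3 markers of another class left out gave 0 each. For het against wt (1 call) DESeq2 gave 5, no filter 218, airway-set cells alone 11 and leaving out 1 library 0 to 160 (160 without wt replicate 3, 8 without wt replicate 2, 2 without het replicate 1), while no sex covariate, at least 4 rule genes, no doublets and no cells with markers of another class gave 0 each. For epididymis against uterus pools (1 call) DESeq2 gave 2, no filter 60 and leaving out 1 library 0 to 2. Duct-set cells alone left 1 wt library and were not fitted. The cause of these moves was not tested.

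Groups shared some replicate numbers in the labels, which do not say what a number marks. Residuals of 5 same-numbered pairs correlated at -0.0944 to 0.121 and those of 15 other pairs at -0.137 to 0.137, but in groups of 2 the residuals mirror each other by construction, so these values do not show whether the numbers pair the libraries. A replicate block in place of sex gave 0 calls for deleted against wt, 0 for null and 10 for het.

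Differences in share kept their direction except with a denominator of ciliated, club-like and alveolar type 2-like cells, where they were -3.19 points for deleted, -2.49 for null, -3.89 for het and -19.0 for epididymis pools (exact permutation p = 0.794, 0.952, 1 and 0.131). With a mitochondrial limit of 20% deleted and het libraries were higher by 0.625 and 0.883 points (p = 0.0317 and 0.0476 by exact permutation). Leaving out 1 library gave 0.285 to 0.611 points for deleted, 0.204 to 0.374 for null, 0.294 to 1.18 for het and 0.00147 to 0.340 for pools. The duct regulator share difference was 3.46 points without thinning, 5.85 without doublets and -7.87 to 0.280 leaving out 1 library (0.280 without wt replicate 1). The centriole amplification share difference stayed at 1.02 to 1.83 points leaving out 1 library and 1.05 without doublets, and was 8.60 without thinning, 5.73 at 2000 UMIs and 2.40 with at least 4 rule genes. Duct over airway list medians, recomputed without each library after the data were seen, kept their direction. The club marker median ran from 0.00248 (without null replicate 2) to 0.0387 (without null replicate 3). The class I median ran from 1.40 (without het replicate 2) to 2.93 and the interferon median from 1.16 (without het replicate 2) to 7.76 (without null replicate 2). Duct-set values in uterus pools rest on 6 and 18 cells, and Nalcn on 2 UMIs, which is the limit that depth sets here.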
